A study of Homo sapiens with 39 samples.

Results

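HCT116 cells, a human colorectal cancer line, that produce isoform 6 of hepatocyte nuclear factor 4 alpha (HNF4A) were compared with their parental cells by RNA sequencing. The comparison takes the 3 libraries of the isoform 6 line and the 3 parental libraries by their labels, 6 of the 39 libraries in the series. The parental cells were HCT116 cells of the Flp-In T-REx system with no HNF4A construct, labelled as an empty control. The isoform 6 line was 1 stable line of these cells that carries 1 inserted copy of human HNF4A isoform 6 joined to GFP at its C-terminal end, under doxycycline control. Both groups received 2.5 µg/ml doxycycline for 48 h, with selection antibiotics removed at that point. Until then, parental cells had grown in blasticidin and zeocin, and the isoform 6 line in blasticidin and hygromycin B. No group made GFP alone. Effects of isoform 6, of GFP, of the earlier antibiotics and of deriving a single line therefore cannot be told apart. The labels do not say that the replicates came from separate cultures, so the spread between libraries of a group may be technical. The p-values measure this spread, pooled over all 13 groups of the series. In bulk RNA, fewer cells that express a gene and less RNA per cell cannot be told apart either.

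HNF4A is a nuclear receptor that binds DNA as a homodimer and switches on genes of the hepatocyte, the enterocyte and other epithelial cells. Alternative promoters and splicing give isoforms that differ at both ends of the protein. In the standard nomenclature, isoforms 4, 5 and 6 carry the extra sequence of exon 1B near the N-terminus, and isoforms 3 and 6 share a short, divergent C-terminus. Isoforms 9 and 12 have this short C-terminus too, with other N-terminal ends. Isoform 3 is therefore 1 of the forms with the same C-terminal end and without exon 1B. Isoforms 4 and 5 are the exon 1B forms with the longer C-terminal ends.

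The deposited values are TPM, a unit that corrects for transcript length and scales each library to its own total. HNF4A, the gene introduced, was measured first because it checks the labels. Summed over its 12 isoform rows, HNF4A was at 31.9, 30.8 and 31.7 TPM in the parental libraries. It was at 1027, 1109 and 1078 TPM in the isoform 6 libraries, 34.0-fold higher by the means. At least 99.73% of the HNF4A signal of each isoform 6 library was in the row for isoform 6, which was listed at 0 in all parental libraries. The parental signal was almost all in the rows for isoforms 10 to 12, between 30.81 and 31.8 TPM, and these rows were listed at 0 in the isoform 6 libraries. The rows are near-identical sequences, so how the signal is split between them is an estimate. The epithelial markers EPCAM, CDH1, KRT8, KRT18 and KRT19 were all present and summed to 3044 to 3171 TPM in parental and 2476 to 2760 TPM in isoform 6 libraries. Markers of fibroblasts, immune cells and endothelial cells stayed low, each list summing to at most 15.5 TPM in any of the 6 libraries.

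The 6 libraries were close to each other. Correlations across genes on the log2(TPM + 1) scale were 0.9921 to 0.9932 within the parental group, 0.9904 to 0.9918 within the isoform 6 group and 0.9883 to 0.9901 between the groups. The first principal component, with 33.1% of the variance, separated the groups. Beyond them, isoform 3 replicate 1 stood apart, with the isoform 3 row of HNF4A at 405.4 TPM against 832.2 and 771.0 TPM in the other two libraries of that line, so differences from isoform 3 are given with and without it. The tables of the lines labelled isoform 4 and isoform 5 have the names of the HNF4A4 and HNF4A5 rows exchanged relative to the other tables. By its own table's names each line expresses its labelled isoform, and by the names of the other tables the identities of these lines are exchanged. They are called "labelled" 4 and 5 for that reason.

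The isoform 6 line differed from parental cells in few genes by a large factor and in many by a small one. Genes were tested with limma on log2(TPM + 1) with Benjamini-Hochberg adjustment, and a gene was called where the adjusted p was under 0.05 and the log2 difference reached 1 in either direction. Of 15002 rows tested, 36 were called (0.240%): 13 higher (0.0867%) and 23 lower (0.153%). Because 4 of the higher rows repeat the values of 1 U1 small nuclear RNA row, these are 32 distinct genes, 9 higher and 23 lower. The split moved with the setting: 4 rows were called higher and 21 lower without isoform 6 replicate 2, and 2 higher and 15 lower with a filter of 5 TPM. Without the fold minimum, 1507 rows (10.0%) passed the adjusted p: 887 were higher (5.91%) and 620 lower (4.13%). Of these, 86.7% differed by less than 0.5 on the log2 scale. The median difference over all rows was -0.0064. When libraries were scaled by the median of ratios instead, the split of the 1869 rows that passed was 1314 higher to 555 lower, 70.3% higher against 58.9% as deposited. The smallest difference among the called rows was 1.0069 and the largest among those that passed the p but were not called was 0.9887. None of the 36 called rows had overlapping libraries between the groups. A complete separation of the 3 libraries of each group was itself common, at 32.6% of all rows.

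**Figure D1:**
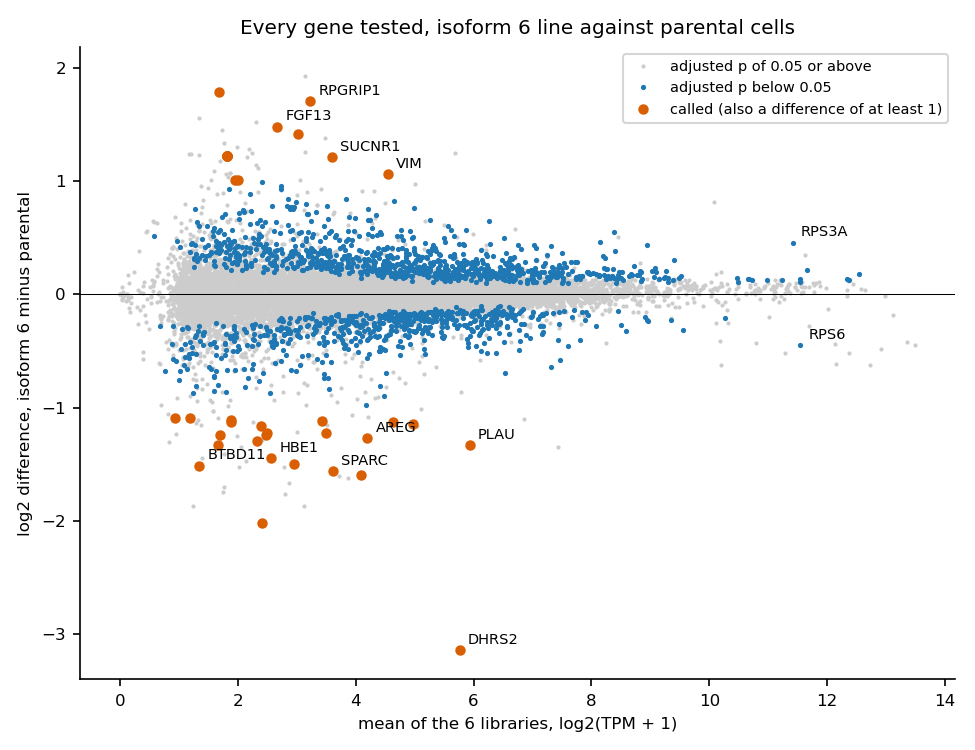
Each point is 1 of the 15002 rows tested, with its mean level over the 6 libraries, log2(TPM + 1), on the x axis and the fitted log2 difference, isoform 6 minus parental, on the y axis. Orange marks the 36 called rows, blue the rows past the adjusted p alone and grey the rest; DHRS2 lies far below all others at -3.14.

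In the authors' deposited table for isoform 6, 2518 rows have an adjusted p under 0.05, and 14 of these reach a log2 fold change of 1 in either direction (5 higher, 9 lower). Of those 14, 13 were also called here. The other was FIBCD1, at 1.02 in the authors' deposited table and 0.99 here. The authors' deposited table gives an adjusted p for 22 of the 36 called rows, and all 22 are under 0.05 there in the same direction. Only 13 of these 22 reach a log2 fold change of 1 there, and some others are much smaller. HBE1 is at -0.73 there and -1.44 here, and OR51B5 at -0.43 there and -1.13 here. The measures are unlike: the deposited fold changes stand beside mean normalised counts, and those here are differences of log2(TPM + 1). Their sizes need not match, and the reason for the gap was not tested.

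The largest change was a fall of DHRS2, a short-chain dehydrogenase of the mitochondria and nucleus that reduces carbonyl compounds. In parental libraries DHRS2 (chr14:23630115-23645639, GRCh38) stood at 83.9, 99.3 and 106 TPM, and in isoform 6 libraries at 9.66, 10.2 and 10.1 TPM. The mean was 9.66-fold lower and the log2 difference was -3.14 ± 0.41 (SE, adjusted p = 3.79e-06 by limma). The standard error pools the spread of this gene in all 13 groups. The 250 bases before and 50 after the RefSeq start of DHRS2 are given because this gene moved most, beside those of AREG and EREG, neighbours that moved together.

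DHRS2, chr14:23629865-23630164, plus strand: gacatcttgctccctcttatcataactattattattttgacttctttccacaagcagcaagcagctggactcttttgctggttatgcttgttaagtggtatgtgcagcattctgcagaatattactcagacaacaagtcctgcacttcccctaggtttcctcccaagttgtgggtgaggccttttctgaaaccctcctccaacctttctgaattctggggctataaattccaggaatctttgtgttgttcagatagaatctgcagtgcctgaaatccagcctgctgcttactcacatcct
AREG, chr4:74444886-74445185, plus strand: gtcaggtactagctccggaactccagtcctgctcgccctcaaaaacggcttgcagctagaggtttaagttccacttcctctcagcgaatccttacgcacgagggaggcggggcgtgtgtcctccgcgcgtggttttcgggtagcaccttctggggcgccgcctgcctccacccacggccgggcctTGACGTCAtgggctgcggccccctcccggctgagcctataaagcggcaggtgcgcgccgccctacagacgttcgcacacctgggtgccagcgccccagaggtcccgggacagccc
EREG, chr4:74364895-74365194, plus strand: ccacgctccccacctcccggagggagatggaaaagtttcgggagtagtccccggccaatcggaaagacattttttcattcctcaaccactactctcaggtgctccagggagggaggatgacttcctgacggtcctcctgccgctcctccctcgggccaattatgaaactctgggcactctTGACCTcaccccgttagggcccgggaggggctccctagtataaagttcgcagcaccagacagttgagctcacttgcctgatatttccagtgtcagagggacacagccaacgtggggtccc

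These windows come from RefSeq on GRCh38.p14, and capitals mark matches to the motifs searched on both strands. Of the 32 distinct called genes, 19 matched the table. The HNF4A sites CAAAGTCCA and CAAAGGTCA, which are in 0.384% and 0.407% of the 35116 windows of this length, were in none of the called genes' windows. The shorter nuclear receptor half-site AGGTCA, which forms the end of CAAAGGTCA, was in 13.8% of all windows and in those of EREG, as its reverse complement 70 bases before the start, and RIBC2. The cAMP response element TGACGTCA, in 1.85% of all windows, was 65 bases before the start of AREG. The AP-1 site TGANTCA, in 7.71% of all windows, was found for FGF13. No searched motif was in the DHRS2 window.

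The ligand genes AREG and EREG were both called lower. AREG (amphiregulin) and EREG (epiregulin), which lie side by side on chromosome 4q, encode growth factors that are shed from the cell surface and activate EGFR. In parental libraries AREG stood at 26.1, 26.0 and 22.6 TPM, and in isoform 6 libraries at 9.47, 10.1 and 9.64 TPM, a log2 difference of -1.27 ± 0.10 (SE, adjusted p = 6.3e-10 by limma). EREG was at 6.76, 7.08 and 6.51 TPM against 2.50, 2.35 and 2.04 TPM, a difference of -1.24 ± 0.10 (SE, adjusted p = 1.11e-09 by limma). In both genes every isoform 6 library was below every parental library. BTC (betacellulin), another ligand at this locus, chosen after its values were seen, fell from 3.48, 3.50 and 4.19 TPM to 2.05, 1.93 and 1.90 TPM (-0.67 ± 0.11 SE, adjusted p = 7.38e-05 by limma). HBEGF, a ligand encoded on chromosome 5, fell by 0.28 (adjusted p = 0.0169 by limma), from 6.89, 6.88 and 5.25 TPM to 5.01, 5.38 and 4.61 TPM, so its groups overlapped. It did not pass without parental replicate 1 (-0.23), parental replicate 2 (-0.23) or isoform 6 replicate 3 (-0.24). EGFR itself, also chosen after its values were seen, did not pass, at -0.07 (adjusted p = 0.75).

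AREG, EREG and HBEGF belong to a list of immediate early genes and feedback targets of the MAPK pathway. Of 25 tested members, 7 fell and 0 rose, against 4.13% and 5.91% of all rows. The median of the list was -0.088. The others that fell were FOSL1, an AP-1 subunit (-0.51 ± 0.14 SE), IER3, DUSP5, a phosphatase of nuclear ERK (-0.41 ± 0.10 SE), and MYC. MYC fell from 151, 153 and 154 TPM to 135, 133 and 136 TPM, a difference of only -0.18. The remaining 18 did not pass, and among these were EGR1 at -0.02, DUSP6 at -0.03, SPRY4 at -0.09 and ETV5 at 0.06, all transcripts that follow ERK activity. Leaving out single libraries left 4 to 7 lower. FOSL1 no longer passed without parental replicate 2 (-0.45) or isoform 6 replicate 1 (-0.42), nor IER3 without parental replicate 1 (-0.40) or isoform 6 replicate 3 (-0.40), nor DUSP5 without parental replicate 2 (-0.35).

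PLAU, the urokinase that turns plasminogen into plasmin (chr10:73909177-73917497), was at 77.5, 93.9 and 87.1 TPM in parental libraries and 29.9, 36.6 and 34.8 TPM in isoform 6 libraries. Its mean was 2.55-fold lower, a log2 difference of -1.33 ± 0.08 (SE, adjusted p = 1.02e-12 by limma). PLAUR, the receptor of urokinase, chosen after its values were seen, fell by 0.36 (adjusted p = 0.000198 by limma). SPARC, a collagen-binding matricellular protein, was at 14.97, 16.3 and 20.4 TPM against 5.28, 4.63 and 5.52 TPM (-1.56 ± 0.34 SE, adjusted p = 0.00252 by limma). NRP1, a co-receptor for semaphorins and VEGF, was at 6.45, 7.72 and 6.39 TPM against 2.22, 2.66 and 2.20 TPM (-1.22 ± 0.11 SE). ICAM1, an adhesion molecule bound by leukocyte integrins, was at 5.89, 6.68 and 5.80 TPM against 2.01, 1.99 and 1.70 TPM (-1.30 ± 0.17 SE).

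Of the further genes called lower, BTBD11 was at 2.68, 2.74 and 2.85 TPM in parental libraries and 0.378, 0.220 and 0.357 TPM in isoform 6 libraries, 8.66-fold lower by the means. KRTAP3-1, a keratin-associated protein of hair, fell from between 9.90 and 11.1 TPM to between 2.35 and 3.86 TPM, and RIBC2 fell by 1.24. CITED4, a transcriptional co-activator, fell by 1.12, and PCDH7, a protocadherin, by 1.16. OAS1, which makes the activator of RNase L, fell from 3.65, 4.24 and 4.13 TPM to 1.14, 1.39 and 1.43 TPM (-1.11 ± 0.11 SE, adjusted p = 3.37e-08 by limma). FGFBP1, a carrier that releases FGFs from the matrix, fell by 1.13, from 29.96 to 36.9 TPM down to 11.6 to 17.2 TPM. Without isoform 6 replicate 3 its difference was -0.98, short of the fold minimum. TNFSF18, a ligand of the TNF family at or below 1.94 TPM in every library, was called lower but not without parental replicate 3 (-0.99) or isoform 6 replicate 3 (-0.95).

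HBE1 and OR51B5 fell next to each other in the beta-globin region of chromosome 11. HBE1, embryonic epsilon globin, was at 5.31, 8.92 and 8.81 TPM against 2.46, 1.99 and 1.96 TPM (-1.44 ± 0.18 SE, adjusted p = 2.72e-06 by limma). OR51B5, an olfactory receptor gene of that region, was at 3.87, 3.98 and 4.23 TPM against 1.54, 1.64 and 0.818 TPM (-1.13 ± 0.16 SE), and at -0.96 without isoform 6 replicate 3. The annotated spans of these genes overlap, so their reads may not be fully separable. HBB, adult beta globin, chosen after its values were seen, did not pass at 0.19 (adjusted p = 0.232).

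Fewer genes were called higher. RPGRIP1, a scaffold of the photoreceptor connecting cilium (chr14:21287939-21351301), was at 3.44, 3.59 and 3.09 TPM in parental libraries and 13.1, 13.8 and 13.02 TPM in isoform 6 libraries. It was 3.94-fold higher by the means, a log2 difference of 1.71 ± 0.13 (SE, adjusted p = 4.82e-10 by limma). FGF13, an intracellular FGF homologue that binds sodium channels and microtubules (chrX:138614731-139222777), rose from 2.35, 2.38 and 2.30 TPM to 8.17, 8.67 and 8.19 TPM (1.48 ± 0.13 SE, adjusted p = 6.41e-09 by limma). SUCNR1, the G protein-coupled receptor for succinate (chr3:151873643-151884619), rose from 6.01, 6.25 and 6.44 TPM to 14.5, 15.9 and 17.0 TPM (1.21 ± 0.15 SE, adjusted p = 2.05e-06 by limma). VIM (vimentin), the intermediate filament of mesenchymal cells, rose from 13.8, 14.6 and 13.9 TPM to 27.7, 32.6 and 31.5 TPM (1.06 ± 0.22 SE, adjusted p = 0.00154 by limma). In these 4 genes the isoform 6 libraries lay well clear of the parental ones. KLK6, a secreted serine protease, rose from 1.54 to 1.83 TPM up to 3.49 to 5.06 TPM, a difference of 1.01 ± 0.14 (SE). It passed the p in every alternative that tested it. Its difference was, however, 0.99 without parental replicate 2, parental replicate 3 or isoform 6 replicate 1, and 0.92 without isoform 6 replicate 2.

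**Figure D2:**
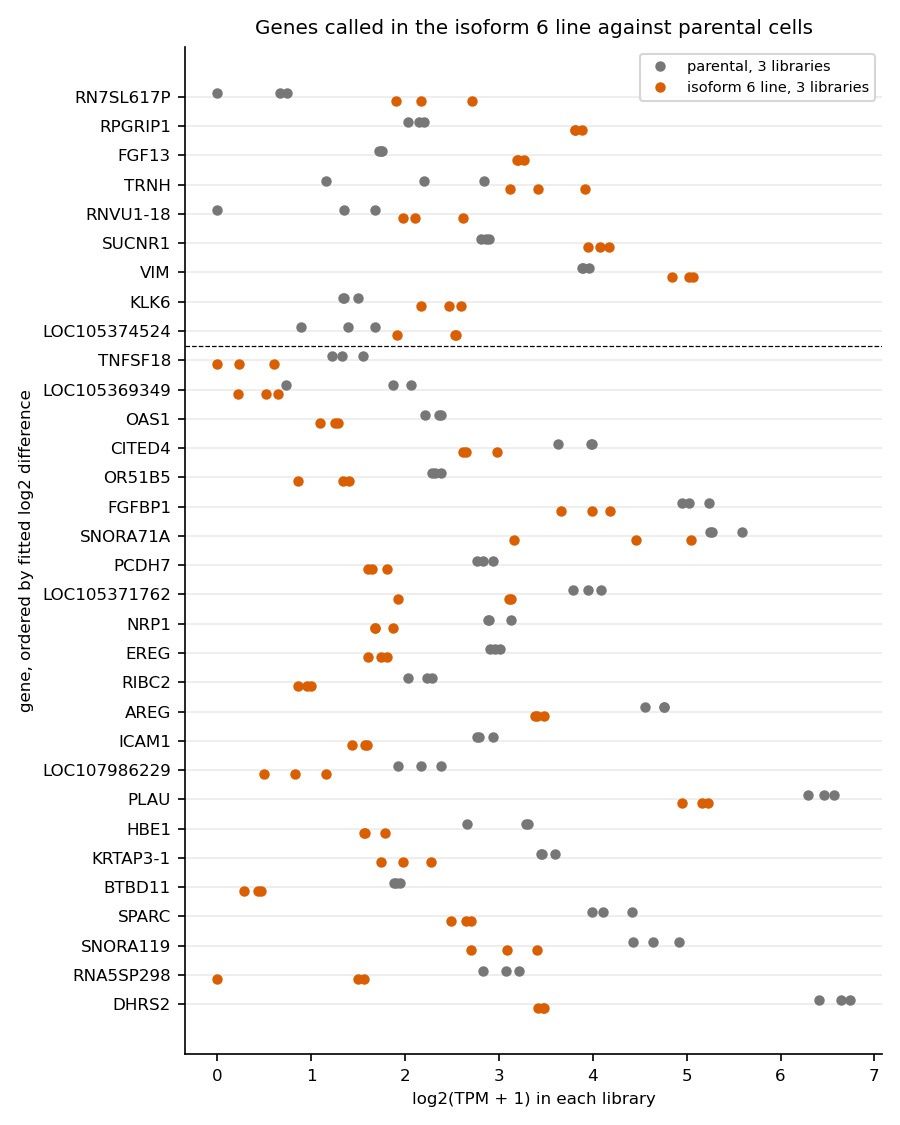
Level of each of the 32 distinct called genes, log2(TPM + 1), in the 3 parental libraries (grey) and the 3 isoform 6 libraries (orange), ordered by the fitted difference; the dashed line divides the 9 higher genes from the 23 lower. For no gene do grey and orange points overlap, a separation that 32.6% of all rows tested showed. The widest gap is that of DHRS2.

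The remaining called rows were short RNAs and uncharacterised transcripts, which poly(A) libraries measure poorly. The short RNAs, pseudogenes included, were RN7SL617P, RNVU1-18 and TRNH among the higher, and RNA5SP298, SNORA119 and SNORA71A among the lower. Their libraries were spread widely: RNA5SP298 was at 8.31, 7.43 and 6.11 TPM in parental and 0, 1.83 and 1.95 TPM in isoform 6 libraries. SNORA71A was at 32.2, 21.0 and 7.92 TPM in the isoform 6 libraries alone. RNVU1-18 is 1 of several near-identical U1 copies, so its reads cannot be placed with certainty. Calls of 5 of these 6 did not hold when single libraries were left out: without parental replicate 2, for instance, RNVU1-18 was at 0.72 (adjusted p = 0.25) and RN7SL617P at 1.55 (adjusted p = 0.093), without parental replicate 3 TRNH was at 0.96, and without isoform 6 replicate 1 RNA5SP298 was at -1.51. Without isoform 6 replicate 3 SNORA71A was at -0.61. Of 3 uncharacterised rows, LOC105374524 was at 0.79 without parental replicate 3, LOC105371762 at -0.82 without isoform 6 replicate 2 and LOC105369349 at -0.83 without parental replicate 1, none of them then called. LOC107986229, another such row, was called lower, from 2.79 to 4.21 TPM down to 0.415 to 1.23 TPM. SNORA119 kept its call in all alternatives, from 20.5 to 29.3 TPM down to 5.495 to 9.59 TPM. The summed level of all short RNA rows was 9891 to 10522 TPM in parental and 9434 to 11504 TPM in isoform 6 libraries.

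Below the fold minimum, genes were ranked by difference where their mean over the 6 libraries reached 5 TPM. Among the lower were ARHGDIB (-0.98 ± 0.14 SE), KRT80, an epithelial keratin (-0.90 ± 0.15 SE), S100A10, the annexin A2 partner (-0.84 ± 0.11 SE), and GPRC5A, a retinoic acid-induced receptor (-0.81 ± 0.07 SE). S100A10 was at 14.04, 13.95 and 13.96 TPM in parental and 7.24, 8.00 and 6.995 TPM in isoform 6 libraries. PARD6B, a polarity protein, fell by 0.70, PIK3R1, the regulatory subunit of PI3-kinase, by 0.69, and SAT1, which acetylates polyamines, by 0.69. Among the higher were LSP1, an actin-binding protein of leukocytes (0.96 ± 0.12 SE), TRIML2 (0.93 ± 0.11 SE), SULT2B1, a sterol sulfotransferase (0.80 ± 0.15 SE), WNT16, a Wnt ligand (0.78 ± 0.18 SE), YBX2, a germ-cell RNA-binding protein (0.77 ± 0.10 SE), and ADGRG6, an adhesion receptor (0.76 ± 0.11 SE). SULT2B1 was at 5.00, 6.22 and 5.37 TPM in parental and 10.4, 10.3 and 10.2 TPM in isoform 6 libraries. ADGRG6 was at 22.1, 22.6 and 22.6 TPM against 40.5, 36.9 and 38.9 TPM. For none of the genes in this paragraph did the groups overlap, a separation that 32.6% of all rows showed. These genes were chosen by the size of their difference, which favours such a separation.

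Classical HNF4A targets of liver and gut, such as apolipoproteins, clotting factors and brush border genes, gave little signal. Only 5 of 21 listed genes reached the filter of a mean of 1 TPM over the 39 libraries, and of these 0 rose and 0 fell with limma (0 at an unadjusted p under 0.05), with a median of -0.018. That filter lets in genes through their level in other lines. With the filter and fit on only the 6 libraries compared, 2 of the listed genes were tested, and 0 rose and 0 fell. Most listed genes were thus too low here for the test to say whether they respond. VIL1 (villin) was at 0.482, 0.683 and 0.497 TPM in parental and 0.821, 0.915 and 1.11 TPM in isoform 6 libraries, a difference of 0.33 (adjusted p = 0.237 by limma). APOA1 was at or below 0.413 TPM in all 6 libraries. Among 11 tested genes of the brush border and enterocyte, USH1C, a scaffold of microvillar tips, rose (0.47 ± 0.13 SE) and LGALS3, galectin-3, fell (-0.19 ± 0.06 SE). USH1C did not pass without parental replicate 1 (0.45) or isoform 6 replicate 3 (0.46). LGALS3 did not pass without parental replicate 2 (-0.18), parental replicate 3 (-0.18) or isoform 6 replicate 1 (-0.13). Among all rows, 5.91% were higher and 4.13% lower.

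Among 18 tested lineage transcription factors and HNF4A partners, 4 fell and 2 rose, with a median of -0.018 (all rows: 4.13% lower, 5.91% higher). SOX9, a factor of intestinal stem and progenitor cells, was at 12.6, 14.69 and 13.0015 TPM in parental and 7.11, 8.92 and 6.97 TPM in isoform 6 libraries (-0.74 ± 0.14 SE, adjusted p = 0.000863 by limma). NR2F1 and NR2F2, the COUP-TF nuclear receptors, which bind sites like those of HNF4A, fell by 0.74 and 0.30. NR2F1 was at 12.4, 11.8 and 14.2 TPM against 6.69, 6.61 and 8.55 TPM. KLF5, a factor of the intestinal crypt, fell by 0.41. HNF4G, the paralogue of HNF4A, rose from 3.62, 3.69 and 3.51 TPM to 4.90, 5.24 and 5.39 TPM (0.42 ± 0.09 SE, adjusted p = 0.00216 by limma). NR5A2, a nuclear receptor of bile acid and steroid genes, rose by 0.27, but not past the test without isoform 6 replicate 2 (0.24). CDX2, a factor of intestinal identity, did not pass at -0.02.

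A list of 14 genes that respond in other lines of the series was taken from earlier results on these samples and on the same parental libraries, so its directions are no independent evidence. Of the 14, 4 rose and 4 fell in the isoform 6 line, against 5.91% higher and 4.13% lower among all rows. TRIM10 rose from 1.40, 1.46 and 1.52 TPM to 3.50, 3.79 and 3.82 TPM (0.94 ± 0.12 SE), CAMK2N1, an inhibitor of CaMKII, by 0.84, and SEMA3B, a semaphorin, by 0.77. C11orf86 rose by 0.51 but stayed below 1 TPM, at 0.940, 0.547 and 0.739 TPM, and it did not pass without parental replicate 2 (0.47), parental replicate 3 (0.51), isoform 6 replicate 1 (0.43) or isoform 6 replicate 3 (0.51). DHRS2, SPARC and FGFBP1 fell as given above. CAVIN2, a caveolar coat protein, fell by 0.54, and among the fits with 1 library left out it passed only without isoform 6 replicate 3 (-0.43, adjusted p = 0.204, without isoform 6 replicate 2). CIDEC at -0.01, CIDEB at -0.21, IL32 at 0.22, ACSL5 at -0.30, SDCBP2 at -0.04 and PPP1R1B at -0.61 did not pass. The filter is a mean over all 39 libraries, so members high only in other lines were tested as well. Where such a gene is near the floor in both groups, its difference on the log2(TPM + 1) scale has little room to move. With the filter and fit on only the 6 libraries compared, 9 of the 14 were tested, and 3 rose and 4 fell.

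**Figure D3:**
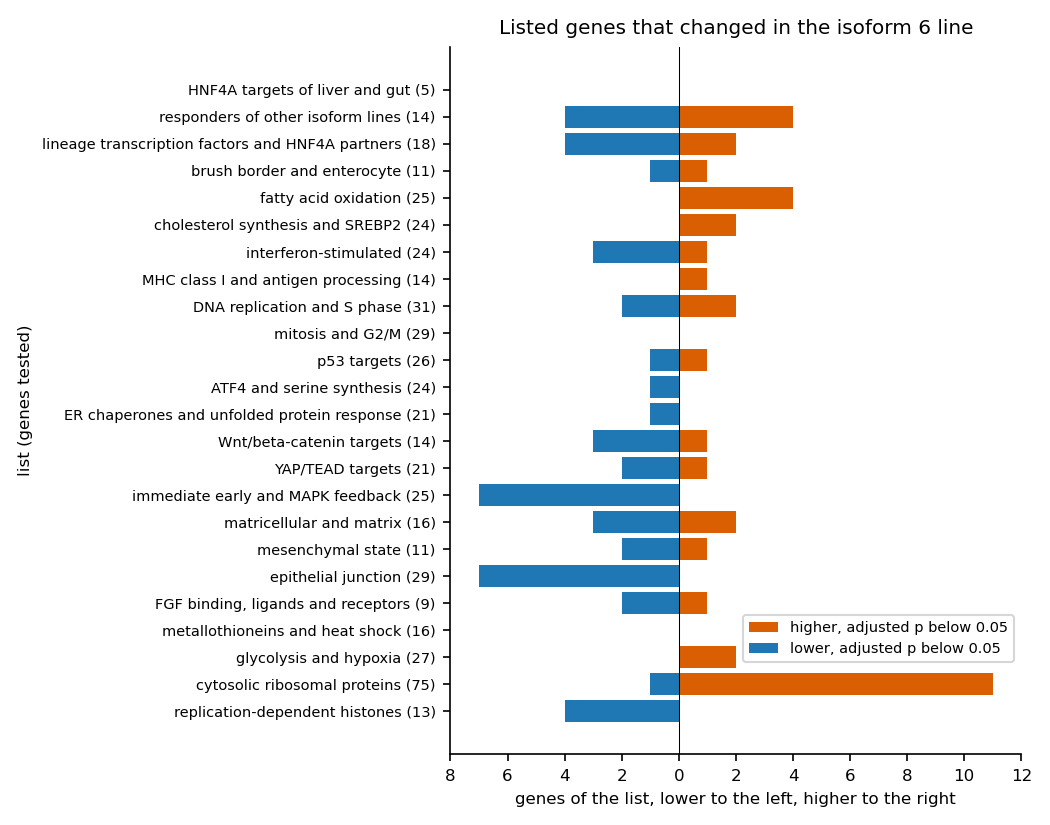
Genes past an adjusted p under 0.05 in each gene list, with those lower in the isoform 6 line to the left (blue) and those higher to the right (orange); the number of tested genes of the list stands in brackets. The immediate early and epithelial junction lists have 7 lower and 0 higher genes each, and the ribosomal list has 11 higher.

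Of 29 tested epithelial junction and keratin genes, 7 fell, 0 rose and 22 did not pass, with a median of -0.071 (4.13% of all rows were lower and 5.91% higher). CDH1 (E-cadherin), the main cell-cell adhesion protein of epithelia, was at 29.2, 30.6 and 33.1 TPM in parental and 22.0, 20.7 and 20.6 TPM in isoform 6 libraries (-0.53 ± 0.10 SE, adjusted p = 0.000664 by limma). KRT19, KRT18 and KRT8, simple epithelial keratins, fell by 0.32, 0.31 and 0.21, CLDN3 and CLDN4, claudins of tight junctions, by 0.29 and 0.20, and EPCAM by 0.20. Between 5 and 7 members fell when single libraries were left out. CLDN3 was at -0.24 without parental replicate 3 and -0.27 without isoform 6 replicate 2, short of the test. CLDN4 no longer passed under median-of-ratios scaling, which left 6 lower, nor without parental replicate 2 (-0.20), parental replicate 3 (-0.15), isoform 6 replicate 1 (-0.17) or isoform 6 replicate 2 (-0.18).

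Of 11 tested mesenchymal genes, VIM rose, while CAV1 and CAV2, the caveolins, fell. Among all rows, the comparison for each list in this paragraph, 5.91% were higher and 4.13% lower. CAV1 was at 214, 214 and 204 TPM against 148, 140 and 136 TPM (-0.58 ± 0.07 SE, adjusted p = 1.92e-06 by limma), and CAV2 fell by 0.52. FN1 (fibronectin) did not pass at -0.02. In the matrix list of 16 tested genes, 2 rose and 3 fell. LAMB3 rose by 0.33 and LAMA3, the chain that joins it in laminin-332, fell by 0.43. THBS1 rose by 0.40, but not past the test without parental replicate 3 (0.35) or isoform 6 replicate 2 (0.37), and LAMB3 was at 0.28 without parental replicate 1. Of 9 FGF ligands, receptors and binding proteins, FGFBP1 and FGFRL1 (-0.29), both on chromosome 4p, fell and FGF19, an enterocyte hormone, rose (0.34), the latter past the test in only 1 of the 6 fits with a library left out, that without isoform 6 replicate 1 (0.26 without isoform 6 replicate 3). Among 21 targets of YAP and TEAD, CYR61 rose (0.57 ± 0.15 SE), and AXL and MYOF fell by 0.31 and 0.32. CYR61 did not pass without parental replicate 2 (0.49), parental replicate 3 (0.50) or isoform 6 replicate 2 (0.55).

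Metabolic lists moved little. Among 25 fatty acid oxidation genes 4 rose and 0 fell, with a median of 0.094, against 5.91% higher and 4.13% lower among all rows. They included all chains that carry electrons from acyl-CoA dehydrogenases to the respiratory chain: ETFB (0.26 ± 0.04 SE, adjusted p = 1.04e-05 by limma), ETFA (0.20 ± 0.05 SE) and ETFDH (0.59 ± 0.10 SE). ETFDH lies in the distal part of chromosome 4q described below, where most genes were higher. ETFA was at 0.19 without isoform 6 replicate 3 (adjusted p = 0.052), and the fourth gene, DECR1 (0.29), did not pass without parental replicate 1 (0.26), isoform 6 replicate 2 (0.27) or isoform 6 replicate 3 (0.26). In cholesterol synthesis 2 of 24 rose, PMVK by 0.20 and HSD17B7 by 0.14, the latter not without parental replicate 1 (0.11) or isoform 6 replicate 1 (0.13). In glycolysis and hypoxia 2 of 27 rose, ENO2 and SLC2A3, neither past the test without parental replicate 2 (0.17 and 0.32).

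Interferon-stimulated genes did not move as a block: of 24 tested, OAS1, OAS3 (-0.45 ± 0.09 SE) and IRF7 (-0.28) fell and USP18, which restrains interferon signalling, rose (0.30 ± 0.04 SE). IRF7 passed without parental replicate 3 and in no other case of a single library left out (-0.24 to -0.30). Among all rows, the comparison for each list in this paragraph, 5.91% were higher and 4.13% lower. B2M, the light chain of MHC class I, rose from 223, 242 and 245 TPM to 318, 337 and 326 TPM (0.47 ± 0.08 SE, adjusted p = 0.000132 by limma), the only one of 14 genes of antigen processing to pass. Among 26 p53 targets, PLK2 fell by 0.48 and DDB2 rose by 0.29. DDB2 was at 0.26 without parental replicate 3 or isoform 6 replicate 2, not past the test. HSP90B1, the endoplasmic reticulum form of HSP90, fell by 0.23, the only one of 21 chaperone genes. DDIT4 fell by 0.49 alone among 24 ATF4 targets, and not past the test without parental replicate 3 (-0.42) or isoform 6 replicate 1 (-0.41).

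Cell cycle lists gave no common direction. Of 29 mitotic genes 0 passed in either direction with limma (4 at an unadjusted p under 0.05), with a median of -0.063, and of 31 genes of DNA replication 2 rose and 2 fell. SLBP, which binds histone mRNA, fell from 155, 163 and 154 TPM to 130, 134 and 127 TPM (-0.27 ± 0.06 SE), and it lies in the first part of chromosome 4p described below. RFC4 and MCM6 rose by 0.18 and 0.17 and CCND1 fell by 0.16. Each of these 3 failed the test when some single libraries were left out, RFC4 at 0.17 without parental replicate 2, MCM6 at 0.15 without parental replicate 3 and CCND1 at -0.13 without parental replicate 2. Of 13 histone genes 4 fell and 0 rose, among them HIST1H2BJ (-0.72 ± 0.19 SE) and HIST2H2BE (-0.44 ± 0.11 SE), with a median of -0.336, against 4.13% lower and 5.91% higher among all rows. Their transcripts mostly lack poly(A) tails and the libraries were enriched for poly(A). Between 1 and 4 passed when single libraries were left out: HIST1H2BJ was at -0.58 without parental replicate 1 and HIST2H2BE at -0.34 without parental replicate 3. Of 16 metallothionein and heat shock genes, 0 passed with limma (2 at an unadjusted p under 0.05). Of 14 Wnt targets 3 fell, SOX9, MYC and CCND1, and DKK1, a secreted Wnt antagonist, rose by 0.20 (from 429, 422 and 408 TPM to 477, 481 and 492 TPM).

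Cytosolic ribosomal protein genes rose in 11 of 75 cases and fell in 1, with a median of 0.068, where 5.91% of all rows were higher and 4.13% lower. This count depended on the setting. It was 19 higher with median-of-ratios scaling, 2 with only the 6 libraries in the fit, 16 without isoform 6 replicate 1, 2 without isoform 6 replicate 2, 4 without parental replicate 1 or isoform 6 replicate 3 and 6 without parental replicate 2 or parental replicate 3. RPS3A rose most among those that passed (0.46 ± 0.05 SE) and lies in the part of chromosome 4q described next. RPS6, the ribosomal protein phosphorylated by S6 kinase, went the other way in every setting. It was at 3307, 3516 and 3504 TPM in parental and 2412, 2568 and 2609 TPM in isoform 6 libraries (-0.44 ± 0.05 SE, adjusted p = 1.07e-07 by limma).

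Positions along the genome set 1 chromosome apart. Genes were grouped by their start in windows of 10 Mb, using GENCODE release 29 on GRCh38, and 236 windows held at least 20 tested genes. Outside chromosome 4, the median differences of 224 windows lay between -0.128 and 0.106. On chromosome 4, 153 of 467 genes passed the adjusted p (69 higher, 84 lower), 32.8% against 9.86% of the 13012 genes placed on other chromosomes. The passing genes were mostly at the ends. From 0 to 30 Mb, 75 of 111 genes were lower and 3 higher, with a median of -0.295. From 150 Mb to the end, 47 of 77 were higher and 1 lower, with a median of 0.348. Between these, 19 of 279 were higher and 8 lower, with a median of 0.019. These bounds were set after the values were seen.

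**Figure D4:**
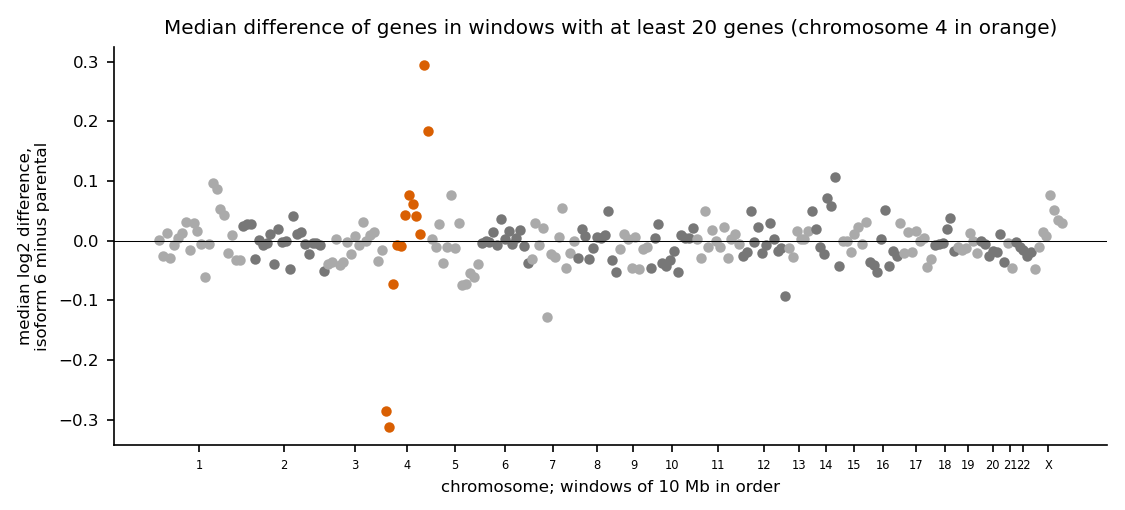
Median log2 difference, isoform 6 minus parental, of the genes in each of 236 windows of 10 Mb with at least 20 tested genes, in order along each chromosome; chromosome 4 is in orange. Windows at both ends of chromosome 4 lie near -0.3 and up to 0.294, beyond all windows of the other chromosomes (-0.128 to 0.106).

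Both ends were alike in all 3 isoform 6 libraries. Against the parental mean, the medians of the first 30 Mb were -0.295, -0.282 and -0.315 in the isoform 6 libraries and -0.039, 0.029 and 0.011 in the parental libraries. From 150 Mb on they were 0.343, 0.36 and 0.328 in the isoform 6 libraries and -0.008, 0.032 and -0.021 in the parental libraries. Genes of the lower end included PIGG (41.9, 41.2 and 42.3 TPM in parental and 28.1, 28.6 and 29.5 TPM in isoform 6 libraries), SLIT2, HS3ST1, FGFRL1 and SLBP. Genes of the higher end included HMGB2 (423, 416 and 414 TPM against 547, 588 and 559 TPM), SAP30, FBXO8, CEP44, ETFDH, RPS3A and TRIML2. FGFBP1 lies in the lower part, and PCDH7 starts 1 window further on. AREG, EREG and BTC lie in the middle part, in a window whose median was -0.009.

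The same windows moved in other lines, measured against the same 3 parental libraries. For the first 30 Mb the line medians were -0.338 in the line labelled 4, -0.265 in that labelled 5, -0.229 in isoform 3, -0.427 in isoform 2 and -0.347 in isoform 10, but 0.073 in isoform 7, 0.090 in isoform 9 and -0.027 in isoform 8. From 150 Mb on they were 0.365, 0.401, 0.164, 0.224 and 0.352 in the same first 5 lines, and -0.427, -0.207 and 0.038 in isoforms 7, 9 and 8. In isoforms 1, 11 and 12 the medians were -0.241, -0.030 and -0.187 for the first 30 Mb and -0.020, -0.141 and 0.391 from 150 Mb on. In the direct comparison of isoform 6 with the line labelled 4, the medians of the lower and the higher end were 0.043 and 0.004, and with that labelled 5 they were -0.018 and -0.032. With isoform 3 they were -0.051 and 0.156, and -0.011 and 0.090 without isoform 3 replicate 1. DNA copy number was not measured, and its part in these values was not tested. Without the genes of chromosome 4, an alternative added after the data were seen, 31 rows were called and 1299 passed the adjusted p.

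Smaller groups of neighbours, chosen after their values were seen, also moved together. On chromosome 11p15, SYT8 (0.64), TNNI2 (0.82), LSP1 (0.96), the imprinted non-coding RNA H19 (0.68) and the imprinted growth factor IGF2 (0.68) were all higher. IGF2 was at 11.0, 10.3 and 9.73 TPM in parental and 18.3, 16.7 and 16.6 TPM in isoform 6 libraries, and H19 at 11.7, 10.8 and 10.9 TPM against 19.2, 18.2 and 17.8 TPM. TNNI2 was at 0.76 without parental replicate 2 (adjusted p = 0.053). The line labelled 5 was also above the parental level, with H19 at 20.3 TPM and IGF2 at 21.1 TPM. In isoform 12 H19 and IGF2 were at 12.3 and 12.0 TPM, and in each remaining isoform line both were below the parental mean. On chromosome 14, RNASE4 and ANG, ribonucleases that share their first exons and so their reads in part, rose by 0.71 and 0.61.

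To ask which differences mark isoform 6 among the forms most like it in structure, the line was compared directly with the lines labelled 4 and 5 and with isoform 3, in the same fit. Against the line labelled 4, 74 rows were called (0.493%), 46 higher and 28 lower in isoform 6. Against that labelled 5, 19 were called (0.127%), 5 higher and 14 lower. Against isoform 3, 105 were called (0.700%), 13 higher and 92 lower, and 147 (26 higher, 121 lower) without isoform 3 replicate 1. Each is a comparison of 2 single lines, so the isoform and the line cannot be told apart.

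RPGRIP1, FGF13, VIM and SUCNR1 were higher in isoform 6 than in each of these 3 lines. RPGRIP1 was at 13.3 TPM ± 0.436 (SD, n = 3) in isoform 6, 0.646 TPM ± 0.123 (SD, n = 3) in the line labelled 4, 0.437 TPM ± 0.097 (SD, n = 3) in that labelled 5 and 0.757 TPM ± 0.603 (SD, n = 3) in isoform 3. The direct differences were 3.12 ± 0.13, 3.32 ± 0.13 and 3.08 ± 0.13 (SE) on the log2 scale, the last 3.34 without isoform 3 replicate 1. Without that library the differences from isoform 3 were 2.77 for FGF13, 3.24 for VIM and 2.24 for SUCNR1, against 2.53, 2.73 and 2.16 with it. FGF13 was at 8.34 TPM in isoform 6 and at 0.370, 0.807 and 0.673 TPM in these lines. VIM was at 30.6 TPM and at 2.46, 8.15 and 4.42 TPM. These lines were thus below the parental level of RPGRIP1 (3.37 TPM), FGF13 (2.34 TPM) and VIM (14.1 TPM), while isoform 6 was above it. Over all 12 lines, isoform 8 came nearest in RPGRIP1 and FGF13, at 10.6 TPM ± 0.642 (SD, n = 3) and 7.85 TPM ± 0.832 (SD, n = 3). For FGF13 the libraries of isoforms 6 and 8 overlapped. For RPGRIP1 all other lines were at or below 0.757 TPM, and for FGF13 at or below 1.23 TPM. For VIM isoform 12 came nearest at 19.7 TPM, then isoform 8 at 18.5 TPM, both above the parental level.

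AREG and EREG were at their lowest in isoform 6 of all 12 lines. AREG was at 9.75 TPM ± 0.354 (SD, n = 3), next came the line labelled 5 at 19.7 TPM ± 2.67 (SD, n = 3), parental cells at 24.9 TPM ± 2.03 (SD, n = 3) and the line labelled 4 at 33.7 TPM, and the highest was isoform 1 at 112.4 TPM ± 9.89 (SD, n = 3). EREG was at 2.30 TPM ± 0.234 (SD, n = 3), with the line labelled 5 next at 6.03 TPM and isoform 1 highest at 33.7 TPM. The other lines lay at or above 39.6 TPM of AREG and 8.47 TPM of EREG. DHRS2 went apart within the exon 1B lines: 9.98 TPM in isoform 6, 49.0 TPM in the line labelled 4 and 199.7 TPM in that labelled 5, which was above the parental 96.4 TPM. Isoform 3 was at 55.4, 5.42 and 5.21 TPM, so its mean rests on replicate 1. The difference of isoform 6 from isoform 3 in DHRS2 was -0.25 with that library and 0.80 without it. The lines of isoforms 1, 2 and 7 to 12 were also below the parental level of DHRS2. They lay between 3.82 TPM in isoform 2 and 17.7 TPM in isoform 11, so a low level was not particular to isoform 6. HBE1 was at 2.14 TPM in isoform 6 and at 43.8 and 26.7 TPM in the lines labelled 4 and 5, and OR51B5 at 1.33 TPM against 31.3 and 19.3 TPM. For both genes isoform 6 was below and the lines labelled 4 and 5 above the parental level. Isoform 12 was also above it, at 16.4 TPM of HBE1 and 13.4 TPM of OR51B5. Isoforms 1, 2, 3 and 7 to 11 were below it, so a low level was not particular to isoform 6. They lay between 0.271 TPM in isoform 9 and 5.12 TPM in isoform 3 for HBE1, and between 0.050 and 2.45 TPM in the same lines for OR51B5. PLAU was at 33.7 TPM in isoform 6 and at a like level, 35.9 and 30.5 TPM, in the lines labelled 4 and 5. The direct differences of -0.09 ± 0.08 and 0.14 ± 0.08 (SE) did not pass.

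**Figure D5:**
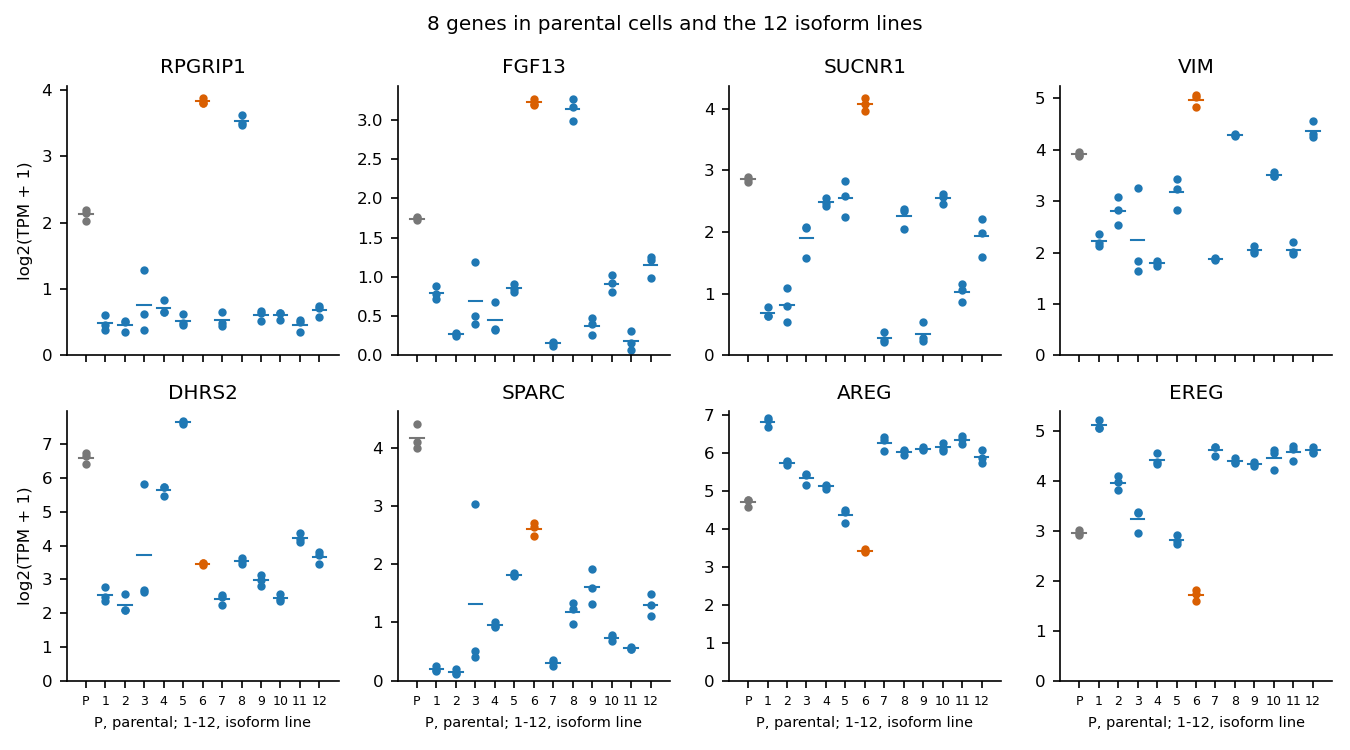
Level of 8 genes, log2(TPM + 1), in parental cells (P, grey), the isoform 6 line (orange) and the other 11 isoform lines (blue, numbered as labelled); points are libraries, 3 a group, and the bar is their mean. RPGRIP1 and FGF13 are high in lines 6 and 8, AREG and EREG are lowest in line 6, and 1 isoform 3 library lies apart from the other two in DHRS2 and SPARC.

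The largest differences from isoform 3 were genes at a high level in isoform 3 that isoform 6 left near the parental level. CIDEC, a lipid droplet protein, was at 14.01 TPM in isoform 3, 0.0692 TPM in isoform 6 and 0.0745 TPM in parental cells. IL32, a cytokine, was at 21.9, 0.668 and 0.424 TPM in the same order, MYO15B, an unconventional myosin, at 41.2, 2.01 and 1.68 TPM, CLRN3 at 12.2, 0.265 and 0.0987 TPM, and C11orf86 at 20.2, 0.742 and 0.217 TPM. The direct differences of these 5 genes were between -3.77 and -3.28 on the log2(TPM + 1) scale, all called, and between -4.10 and -3.68 without isoform 3 replicate 1. Of them C11orf86 alone passed the test between isoform 6 and parental cells. Against the line labelled 4, WDTC1, which was at 3.71 TPM there, stood at 16.2 TPM in isoform 6, a direct difference of 1.87 ± 0.09 (SE), and at 14.6 TPM in parental cells. CYR61 was 1.24 ± 0.15 (SE) higher in isoform 6 than in the line labelled 5.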

How the data were processed

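RNA was enriched for poly(A) and sequenced, per the labels' protocols. The submitters' processing notes list Trimmomatic 0.36, FastQC 0.11.5, kallisto 0.44.0, DESeq2 1.22.2 and GRCh38.p12, with no roles. The authors deposited 1 table per group with TPM for each library; TPM keep no read depth, so depth per library is unknown and no counting interval is given. The isoform 6 table also holds the authors' comparison with parental cells, from which the deposited log2 fold change, the deposited adjusted p-value and the authors' mean normalised count (a signal scale, summing to 50609338) were copied for comparison only.

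Rows HNF4A1 to HNF4A12 were left out of tests. The 15002 rows whose mean over all 39 libraries reached 1 TPM were fitted as log2(TPM + 1) by limma 3.58.1 (lmFit and eBayes, mean-variance trend, R 4.3.3, 13 groups, 26 residual degrees of freedom), and p-values were adjusted by Benjamini-Hochberg over all rows. Differences on this scale understate changes of low genes. The fit was tested on simulated data. Genes were named by rank of change among called genes, then among genes past the adjusted p, and by list. The members, gene lists and the naming rule were chosen with earlier results of these data known. A list of 13 mitochondrially encoded genes had no row in the tables and was not tested. A member of the lineage factor list is not reported here. Replicate numbers did not pair the libraries. Positions come from GENCODE release 29 (13480 rows matched once).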

Additional observations from a re-analysis of the deposited data

Results flagged for a closer look

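Genes called against parental cells were marked when the direct contrast of isoform 6 with a related line was called as well, because their change then differs between 2 lines. All values are log2 differences, isoform 6 minus the other line, from limma.

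Against all 3 lines, isoform 6 was higher in RPGRIP1 (3.12 against the line labelled 4, 3.32 against that labelled 5 and 3.08 against isoform 3), FGF13 (2.78, 2.37 and 2.53), VIM (3.19, 1.81 and 2.73) and SUCNR1 (1.58, 1.52 and 2.16). It was lower in EREG (-2.70, -1.09 and -1.51) and in the small nucleolar RNA SNORA119 (-1.22, -1.13 and -1.49).

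Against the lines labelled 4 and 5, in that order, HBE1 was at -3.84 and -3.15, OR51B5 at -3.81 and -3.14, DHRS2 at -2.18 and -4.19 and the pseudogene RNA5SP298 at -2.12 and -2.39. Against the line labelled 4 and isoform 3, AREG was at -1.69 and -1.91, the uncharacterised row LOC107986229 at -1.76 and -1.54, SPARC at 1.66 and 1.29, and TNFSF18 at -1.19 and -1.06. SPARC was thus lower than in parental cells and higher than in these lines. By the means, every line was below the parental 17.2 TPM of SPARC, so a fall was not particular to isoform 6. Isoform 6 was the highest line at 5.14 TPM. The others lay between 0.105 TPM in isoform 2 and 2.67 TPM in isoform 3, whose mean rests on replicate 1. Against the line labelled 4 alone, ICAM1 was at -2.51 and LOC105374524 at 1.40. Against isoform 3 alone, OAS1 was at -1.38, PLAU at -1.07 and NRP1 at -1.01.

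Isoform 3 replicate 1 stood apart from its group, with the lowest level of its own isoform. Without it, the difference from isoform 3 was 2.16 for SPARC and 3.24 for VIM, and PLAU (-0.98) and NRP1 (-0.94) no longer reached the fold minimum. The other values without it were 3.34 for RPGRIP1, 2.77 for FGF13, 2.24 for SUCNR1, -1.65 for EREG, -2.01 for AREG, -1.52 for LOC107986229, -1.5 for OAS1, -1.16 for TNFSF18 and -1.56 for SNORA119.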

How the results depend on the processing

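Depth is unknown from TPM, which limits statements on genes near 1 TPM. Of the 32 distinct genes called against parental cells, 20 kept their call under each of the 16 alternatives in which they were tested. Not all 20 were tested in every alternative: SUCNR1, for example, was tested in 15 and PCDH7 in 14. With a pseudocount of 0.1, 61 genes were called against parental cells, 132 against the line labelled 4, 44 against that labelled 5 and 179 against isoform 3. With a filter of 5 TPM, 17, 32 and 8 were called against parental cells and the lines labelled 4 and 5; fewer genes entered these tests. Leaving out each library in turn gave 25 to 38 calls against parental cells (4 to 17 higher, 19 to 25 lower), 67 to 75 against the line labelled 4, 18 to 20 against that labelled 5 and 91 to 147 against isoform 3, and 885 to 1209 genes changed without a fold minimum; the lowest of these were without isoform 6 replicate 2 (885), parental replicate 3 (906) and parental replicate 2 (953). The other alternatives stayed within 1.5 times the count reported. Replicate numbers are shared between groups, but same-numbered libraries correlated at -0.006, 0.029 and -0.020. With the replicate block in a fit of the 6 libraries, 44 genes were called and 1073 changed against parental cells, and 104 were called against isoform 3.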
